A study of Homo sapiens with 8 samples.

Results

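ER binding was examined at the trefoil factor gene cluster on chromosome 21, which holds TFF1, TFF2 and TFF3. All deposited peaks of 4 ER ChIP-seq libraries were taken from 50 kb before the first to 50 kb after the last of the 3 genes, by their GENCODE gene bodies. In GRCh38 this window runs from 42261667 to 42416535 on chromosome 21 and is 154.9 kb long. It held 6 of the 35944 peaks of the series, 2 in each siCtrl library and 1 in each siCDK12 library, and all 6 had a q-value under 0.05. Merged across libraries where they overlapped, the 6 peaks formed 3 sites, and 4 of the 6 peaks lay at a single site upstream of TFF1.

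LY2 cells, a tamoxifen-resistant ER+ breast cancer cell line, were serum-depleted for 24 hours without 4-hydroxytamoxifen. They were then transfected with an siRNA pool against CDK12 (siCDK12) or with a nontargeting siRNA (siCtrl) for 48 hours. Both groups received 1 µmol/L β-estradiol for 1 hour before crosslinking, so no library without estradiol was compared. The libraries analysed were siCtrl replicates 2 and 3 and siCDK12 replicates 3 and 4, all of 1 cell line. The study left a divergent replicate of each condition out of its own comparison. The labels do not say whether replicates came from separate cultures, so the p-values refer to these libraries alone. They do not measure a spread between libraries or cultures. No peak list of the 4 input samples was analysed here.

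The trefoil factors are small, cysteine-rich proteins that epithelial cells secrete together with mucus, and they take part in the protection and repair of mucosal surfaces. TFF1, first described as pS2 in a breast cancer line, is a textbook estrogen-induced gene and a long-used readout of ER activity. TFF2 is best known from the stomach, and TFF3 from intestinal goblet cells and from ER+ breast tumors. Liganded ER binds DNA as a dimer, and its preferred sequence is the estrogen response element GGTCANNNTGACC, a pair of inverted half-sites. Much ER binding lies in distal enhancers rather than at promoters, often next to forkhead factors such as FOXA1. CDK12 is a kinase that phosphorylates RNA polymerase II during elongation.

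The site shared by the 4 libraries spans chr21:42376356-42376640 in GRCh38. It lies inside TMPRSS3 (ENSG00000160183.17), which encodes a transmembrane serine protease, in intron 11 of the canonical transcript. Its summits fell 33 to 44 bp from exon 11, and the site covers 100 of the 143 bp of that exon. The summits of the 4 libraries lay within 11 bp of each other, from 42376497 to 42376508. This is 9962 to 9973 bp upstream of the transcription start of TFF1 (ENSG00000160182.3), which runs on the minus strand from 42366535 to 42362282. The full site is shown because it was the only site of the window with a peak in the 4 libraries. It is given on the plus strand, with a forkhead sequence and the best match to the estrogen response element in capitals.
Site upstream of TFF1: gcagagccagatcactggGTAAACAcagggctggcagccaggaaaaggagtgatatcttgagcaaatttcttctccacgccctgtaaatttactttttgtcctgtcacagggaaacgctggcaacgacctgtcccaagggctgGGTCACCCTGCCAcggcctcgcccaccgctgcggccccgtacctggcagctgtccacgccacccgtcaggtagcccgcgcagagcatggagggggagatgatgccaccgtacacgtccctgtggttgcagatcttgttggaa

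The best match, on chromosome 21 from 42376499 to 42376511, has an intact first half-site and an altered second one.
Element at the site upstream of TFF1: GGTCAcccTGCCA
Relative to GGTCANNNTGACC, counted from 1 at the first G, it has 2 substitutions, A11C and C13A. Its center lies 8 bp from the summit of siCtrl replicate 2. Within 100 bp of the summit, an element with at most 2 mismatches was found at 11.3% of the 33734 merged sites of the series and at 51.2% of the 84 sites with a peak in all 4 libraries. With at most 1 mismatch these shares were 1.63% and 19.0%, and none of the 3 sites of the window held such an element. The forkhead sequence TGTTTAC, read here on the minus strand as GTAAACA, lies 120 bp from the same summit. Within 150 bp of the summit it was found at 3.01% of all merged sites. The half-site GGTCA, which is part of the element above, was found at 47.2% of merged sites on either strand. The AP-1 sequence TGANTCA, the GATA sequence AGATAA and the AP-2 sequence GCCNNNGGC, searched on both strands, were not present within 150 bp of the summit at any of the 3 sites. They were found at 9.96%, 12.5% and 8.34% of all merged sites.

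**Figure D1:**
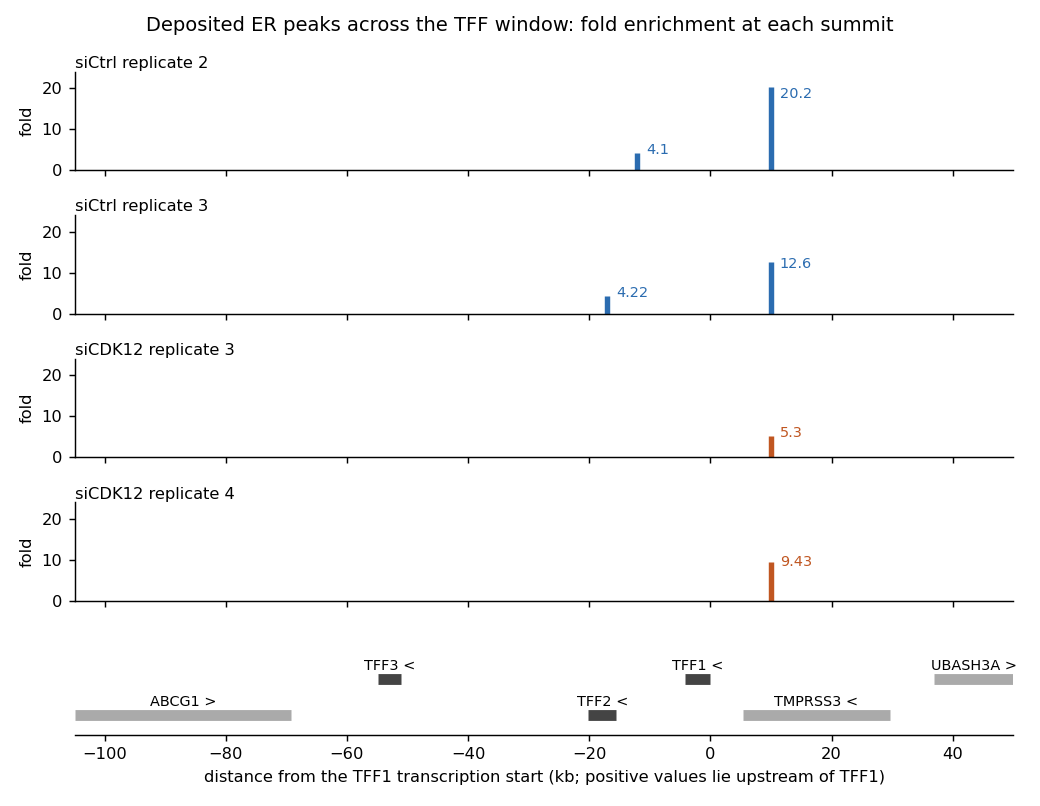
ER peaks of each library across the TFF window. The x axis is the distance from the TFF1 transcription start in kb, positive upstream of TFF1, and each bar is the deposited fold enrichment at a peak summit; gene bodies are drawn below with their direction. A peak about 10 kb upstream of TFF1 was listed in the 4 libraries, with folds from 5.3 to 20.2, and each siCtrl library had 1 further peak with a fold under 5.

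At this site the deposited fold enrichment, the pileup of fragments over the local background of the same library, reached 20.2 in siCtrl replicate 2 and 12.6 in replicate 3. It was 5.3 in siCDK12 replicate 3 and 9.43 in siCDK12 replicate 4. Both siCDK12 values were under both siCtrl values. The mean fold was 16.4 ± 5.36 in siCtrl and 7.37 ± 2.92 in siCDK12 (SD, n = 2 libraries each). The mean log2 fold fell by 1.17, a ratio of 0.444, siCDK12 over siCtrl (two-sided exact permutation test, p = 0.333, n = 2 per condition). With 6 assignments of the libraries, 0.333 is the smallest p that this test can give, so the difference could not pass 0.05 whatever its size. The site was taken for the test because its siCtrl fold was the highest in the window. Those siCtrl folds are also the baseline of the difference, and choosing by them can by itself make it more negative. It is also the only site of the window with a peak in every library. Folds are not normalized between libraries.

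The pileup at the summit, solved from each fold and p-value, was 111 fragments in siCtrl replicate 2 (exact Poisson 95% interval 91.3 to 134) and 87 in siCtrl replicate 3 (69.7 to 107). It was 30 in siCDK12 replicate 3 (20.2 to 42.8) and 44 in siCDK12 replicate 4 (32 to 59.1). Counting error is all that these intervals cover. Those of the siCtrl libraries did not overlap those of the siCDK12 libraries. The mean pileup was 99 ± 17 in siCtrl and 37 ± 9.9 in siCDK12 (SD, n = 2), a ratio of 0.37 on the log scale (two-sided exact permutation test, p = 0.333). Locally, the background amounted to 4.55 and 5.99 fragments for siCtrl against 4.85 and 3.77 for siCDK12, so the conditions overlapped in this value. It was 3.19 to 5.19 times the lowest background of the same library, and the part of this raised background in the fold was not tested. The lowest background ranged from 1.01 to 1.23 fragments across the libraries and was lowest in siCtrl replicate 2. It is only a rough stand-in for depth. The smallest listed peak width, 141 bp in siCtrl replicate 2 and up to 162 bp in the others, ordered the libraries in the same way. Peak width was 271 and 273 bp for siCtrl, against 185 and 236 bp for siCDK12.

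**Figure D2:**
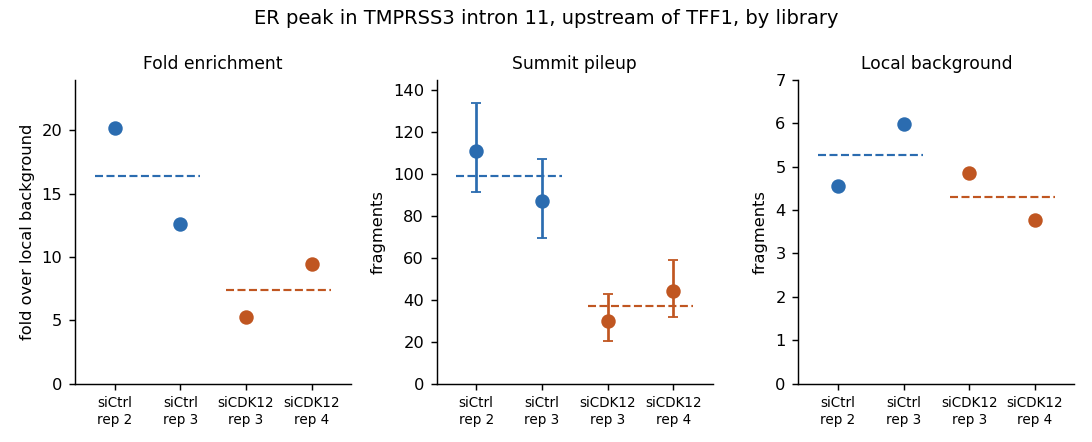
Values of the ER peak in TMPRSS3 intron 11, upstream of TFF1, in each library. The panels show the fold over the local background, the summit pileup in fragments with exact Poisson 95% intervals, and the local background in fragments; points are libraries and dashed lines are means of 2. Fold and pileup were lower in both siCDK12 libraries, with pileups of 30 and 44 against 111 and 87, while the local backgrounds of the conditions overlapped.

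The rank of the site within its own library depended on the measure. By -log10 q it ranked 17 of 15149 peaks in siCtrl replicate 2 and 21 of 6913 in siCtrl replicate 3. It ranked 41 of 6653 in siCDK12 replicate 3 and 4 of 7229 in siCDK12 replicate 4. By fold it ranked 35 and 57 in siCtrl replicates 2 and 3, 302 in siCDK12 replicate 3 and 5 in siCDK12 replicate 4. By both measures the siCDK12 libraries lay on either side of the siCtrl libraries, and the lists differ in length, so the ranks are not directly comparable. The corresponding -log10 q values were 104 and 62.2 for siCtrl against 8.86 and 24.9 for siCDK12.

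A peak in all 4 libraries was found at 1 of the 3 sites of the window and at 0.249% of all merged sites. By siCtrl fold the 84 sites of this kind formed 2 clusters, and they were divided at a geometric mean siCtrl fold of 5 after this was seen, with the nearest sites at 3.48 and 6.31. The 38 sites under 5 had a median log2 difference of -0.09, siCDK12 minus siCtrl, and a median local background of 24.8 times the lowest of the library. The 46 sites above 5, the site upstream of TFF1 among them, had a median of 2.71 times, and the value at this site was 4.2 times. Most of the 38 sites under 5 lay on chromosome 17 from 60245304 to 61848511 or on chromosome 20 from 47195068 to 57145791. The part of the raised background in their folds and differences was not tested. Both siCDK12 folds were under both siCtrl folds at 67.9% of the 84 sites and at 93.5% of the 46. The site upstream of TFF1 shared this order with most of them. The siCtrl folds that set the division are also the baseline of this order and of the difference. Choosing sites by a high siCtrl fold can by itself raise this share and make the median among the 46 more negative. Among the 46 sites the median log2 difference was -1.60 (quartiles -1.83 and -1.18), a ratio of 0.33. The difference was more negative than the -1.17 at the site upstream of TFF1 in 34 of them and less negative in 11. The 46 sites were kept only where siCDK12 peaks were listed, so sites that fell below the peak threshold after siCDK12 are not in these counts.

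**Figure D3:**
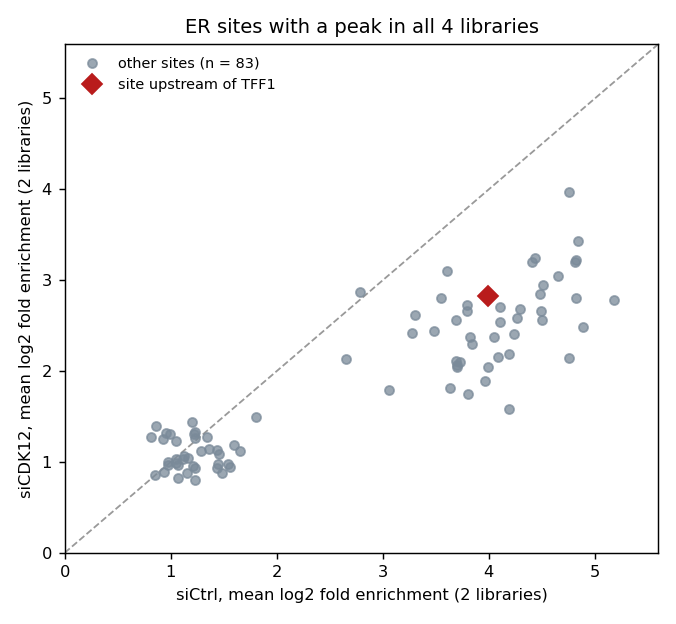
ER sites with a peak in all 4 libraries. Each point is a site, with the mean log2 fold enrichment of the 2 siCtrl libraries on the x axis and that of the 2 siCDK12 libraries on the y axis, and the dashed line marks equal values. The site upstream of TFF1 (diamond) lies at 3.99 and 2.82, among the upper cluster of sites, most of which lie under the line.

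The siCDK12 libraries placed this site differently among the 46. The fold of replicate 4 was 1.78 times that of replicate 3, the highest of the 46 ratios, which ranged from 0.401 to 1.78 with a median of 0.858 and replicate 4 was above replicate 3 at 15. By fold, the site ranked 22 and 31 of the 46 in siCtrl replicates 2 and 3, 31 in siCDK12 replicate 3 and 5 in siCDK12 replicate 4. Without siCDK12 replicate 3 the log2 difference from siCtrl was -0.76, and without siCDK12 replicate 4 it was -1.59. Across all sites with a peak in both siCtrl libraries, 35 had a mean siCtrl fold at least as high as this site, itself included. Of these, 26 had a peak in both siCDK12 libraries, 8 in 1 of them and 1 in neither.

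No library had a peak at the TFF1 promoter. An element with 1 mismatch lies with its center 399 bp upstream of the TFF1 start, closer to the consensus than the element at the bound site, and the nearest listed peak began 9415 bp from it. The region upstream of TFF1 that holds this element is the classical estrogen-responsive promoter of the gene. The lists extend down to pileups of 5 fragments in siCtrl replicate 2 and 6 in the other libraries, the smallest that pass a p-value of 0.001 at the lowest background. A place without a listed peak may have had a lower pileup or a higher local background, and its value is unknown rather than 0. The smallest listed widths were 141 to 162 bp by library, so a narrower stretch may also be absent from the lists. In the whole window 8 elements with 1 mismatch and none without a mismatch were found. Counting elements with at most 1 mismatch, this is 51.7 per Mb against 22.1 per Mb over chromosome 21, which held 847 with 1 mismatch and 39 without any. None of the 8 lay under a peak of any library, and 10 of the 886 on chromosome 21 did.

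TFF2 (ENSG00000160181.9, 42346357 to 42350997, minus strand) had a peak in siCtrl replicate 3 alone. This peak, chr21:42349409-42349561, lies in intron 2 of the canonical transcript, 1458 bp downstream of the start of the gene. Its fold was 4.22, its pileup 10 fragments (exact Poisson 95% interval 4.8 to 18.4) and its -log10 q 1.92, which ranked it 2947 of 6913. Its sequence is shown because it is a tandem repeat, with the first 25-base unit in capitals.
Site in TFF2 intron 2: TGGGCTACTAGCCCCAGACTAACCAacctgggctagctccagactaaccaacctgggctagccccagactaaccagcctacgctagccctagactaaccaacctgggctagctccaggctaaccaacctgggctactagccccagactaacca
Of its bases, 74.2% equalled the base 25 positions further on. The best such share, over shifts of 10 to 60 bases, was 32.2% at the site upstream of TFF1 and 35.8% at the site between TFF2 and TFF1. The part of the repeat in this peak was not tested.

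A peak between TFF2 and TFF1 was listed in siCtrl replicate 2 alone, at chr21:42354434-42354574. It lies 3483 bp upstream of the TFF2 start, outside gene bodies. The fold was 4.1, the pileup 11 fragments (exact Poisson 95% interval 5.49 to 19.7) and the -log10 q 2.08, which ranked it 4699 of 15149. The window held 12.9 peaks per Mb in each siCtrl library and 6.46 in each siCDK12 library, which are rates from 2 peaks and 1 peak. Over the genome the rates were 2.15 to 4.89, and over chromosome 21 they were 0.963 to 2.44. The window was chosen around a known ER target, so these rates are a description. Peaks in a single library were the common case, at 95% of all merged sites. Both single-library sites had at best 4 mismatches to the element near their summits. They account for the difference in peak number, 2 per siCtrl library against 1 per siCDK12 library (two-sided exact permutation test, p = 0.333, n = 2 per condition).

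No site of the window was lost, meaning shared by the siCtrl libraries with no peak after siCDK12, and none was gained, the mirror case. Over the series 1.59% of merged sites were lost and 0.353% gained. Only sites with a peak in both siCtrl libraries can be lost. The series held 788 of these, of which 535 were lost, and the site upstream of TFF1 was the only one in the window. TFF3 (ENSG00000160180.17, 42311667 to 42315409, minus strand) had no peak in its body in any library. The nearest summit lay 34130 bp from its start, and the site shared by the 4 libraries lay 61088 bp from it. Of the other protein-coding genes that reach into the window, the cholesterol transporter gene ABCG1 and UBASH3A, a regulator of T-cell receptor signaling, had no peak in the part that the window covers. A site in all 4 libraries within 50 kb was found for 0.539% of protein-coding genes. TFF1, TFF2, TMPRSS3 and UBASH3A were among them through the same site, while TFF3 and ABCG1 were not. The distance does not show which gene the site acts on.

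Of 12 further estrogen response genes, examined with the same 50 kb rule, 7 had a site in both siCtrl libraries, against 3.99% of all protein-coding genes. A site in all 4 libraries was found at 2 of the 12, GREB1 and CTSD. A lost site was found at 5 of the 12, against 3.11% of protein-coding genes, and a gained site at none. GREB1 was among these 5, with 2 lost sites beside the site in all 4 libraries. Only genes with a site in both siCtrl libraries can have a lost site. Over all protein-coding genes, 624 had a lost site and 800 a site in both siCtrl libraries, against 5 and 7 of the 12. Among genes with a site in both siCtrl libraries, loss was thus common in general. The list was chosen as known ER targets, so these counts are a description.

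At GREB1, an estrogen-induced growth regulator, the strongest site had folds of 40 and 32.9 in siCtrl and 10.2 and 4.63 in siCDK12 replicates 3 and 4. At IGFBP4, which encodes a binding protein of insulin-like growth factors, the folds were 22.8 and 17.2 in siCtrl and 4.63 in siCDK12 replicate 3, with no peak listed in replicate 4. At CTSD, the gene of the lysosomal protease cathepsin D, siCtrl folds of 21 and 13.1 stood against siCDK12 folds of 4.41 and 6.14. The siCtrl folds at CTSD were close to those upstream of TFF1, and both sites had the higher siCDK12 fold in replicate 4. The site at GREB1 had its higher siCDK12 fold in replicate 3, and at IGFBP4 replicate 4 gave no value to compare. At RARA, the retinoic acid receptor alpha gene, the folds were 12.9 and 8.53 in siCtrl and no peak was listed in siCDK12. The strongest sites of 4 of the 7 genes were listed in neither siCDK12 library, and their siCtrl folds were 4.67 to 13.4. Each site was the strongest of its gene by siCtrl fold, and the named genes had the highest of these folds. This choice can by itself make siCDK12 folds lower or leave siCDK12 peaks unlisted, so the contrasts are a description.

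**Figure D4:**
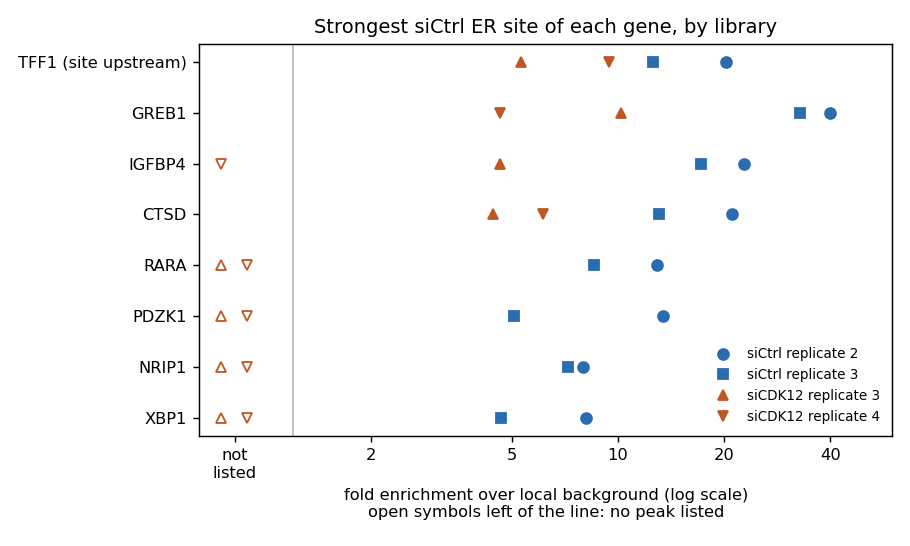
Fold enrichment at the strongest siCtrl site of each estrogen response gene with a site in both siCtrl libraries, and at the site upstream of TFF1. The x axis is the fold over the local background on a log scale, each symbol is a library, and open symbols left of the line are libraries with no peak listed. The site upstream of TFF1 and the strongest sites of GREB1 and CTSD had a peak in the 4 libraries. Those of RARA, PDZK1, NRIP1 and XBP1 had none in siCDK12. GREB1 also had 2 lost sites, which are not drawn. The sites were chosen by their siCtrl folds, which can by itself make the siCDK12 folds lower.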

How the data were processed

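ER ChIP-seq libraries of LY2 cells, 2 per condition, were analysed from peak lists. Reads of 50 bp were aligned by the authors to GRCh38 using BWA-MEM, and MACS2 was run separately per library. As deposited, each peak carries a fold, the ratio of summit pileup to local background, a -log10 p-value and a -log10 q-value. Its deposited score restates the -log10 p-value times 10 as a whole number. Peak numbers were 15149 and 6913 for siCtrl against 6653 and 7229 for siCDK12, and between 20.4% and 28.0% of each had a q-value above 0.05. They were used as deposited.

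The members and gene lists were chosen with earlier results of these data known. The members are all peaks near TFF1, TFF2 and TFF3. Of 12 estrogen response genes, the 4 with the highest siCtrl folds are named. Overlapping peaks (1 bp or more) on chromosomes 1 to 22, X and Y were joined into sites. Genes are from GENCODE release 44, and sequence from the matching hg38 reference. Whole-number pileups were solved from fold, taken as (pileup + 1) over (background + 1), and p-value, with an error under 0.01 in -log10 p at all but 1 peak of each siCtrl library. The lowest background is the lowest value shared by at least 50 peaks. Means were compared by two-sided exact permutation tests. On simulated data, 2000 of 2000 pileups and all planted sites and elements were recovered. Alternatives were stricter peak filters, other windows, merging rules and element settings, and each library left out. The study's DiffBind test needs reads and was not run. The analysis used Python 3.11.15, numpy 2.4.6, SciPy 1.17.1, pysam 0.24.0 and matplotlib 3.10.9.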

Additional observations from a re-analysis of the deposited data

How the results depend on the processing

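In total, 58 of 63 recomputed values kept their call. Some could not differ, such as the element count of 0 when no mismatch was allowed, so the tally is not a measure of robustness. The log2 fold difference at the site upstream of TFF1 kept its direction in every setting run, and was -1.44 from pileups and -1.59 from pileups over the lowest background. Omitting single libraries moved it between -1.59 and -0.76, and in each case a condition had 1 library, for which the spread is unknown. The difference in peak number was 0 when peaks needed a -log10 q of 3 or more, and 0 when they needed a fold of 5 or more, since these filters remove both single-library peaks. It was -1.5 with 100 kb either side and -1 without any single library. The number of lost sites was 0 to 1 across the values that left out a library, and it was 1 without siCtrl replicate 2 or replicate 3, when a peak in the remaining siCtrl library sufficed. The number of sites with an estrogen response element was 1 with at most 2 mismatches, which is the site upstream of TFF1.

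No paired analysis was possible because replicate 3 is the one number found in both conditions. The smallest p that 2 libraries per condition allow is 0.333, so the tests say nothing about stability. Peak lists hold no reads, and the level at a site without a listed peak is unknown.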
